A study of Caenorhabditis elegans with 41 samples.

Results

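Vitellogenins are the precursors of yolk protein, and the C. elegans genome encodes them in a family of 6 genes, vit-1 to vit-6. All 6 were taken by name from the 20390 genes listed for each library, and all 6 had a value in every one of the 23 mRNA-seq libraries. In the files they carry the identifiers K09F5.2 (vit-1), C42D8.2 (vit-2), F59D8.1 (vit-3), F59D8.2 (vit-4), C04F6.1 (vit-5) and K07H8.6 (vit-6).

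Vitellogenin genes are transcribed in the intestine of the adult hermaphrodite and not in males or in larvae. The proteins are secreted into the body cavity, bound by the receptor RME-2 on the oocyte surface and taken up by clathrin-dependent endocytosis, so that the embryo inherits yolk that its mother's intestine made. The products of vit-1 to vit-5 are the large yolk polypeptides, and the product of vit-6 is cut into the pair of smaller ones. The family is widely used as a read-out of the larva-to-adult switch and of the sexual identity of the intestine.

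The libraries came from whole worms of 5 strains at 3 stages, in a study of how chromosomal duplications change mRNA levels. SP117 carries mnDp10 (X;I), a piece of the X joined to chromosome I, and the X-linked marker mutation unc-3(e151). It gave 2 libraries of embryos, 4 of L2-L3 larvae and 3 of young adults. BC4289 has a duplication from chromosome IV attached to X, sDp10 (IV;X), and gave 2 libraries of L2-L3 larvae and 3 of young adults. Embryos of 3 further strains gave 3 libraries each. TY1916 has the X duplication yDp11 (X;IV) attached to chromosome IV, with the X markers lon-2(e678) and unc-9(e101). OP37 carries the integrated multicopy fosmid wgIs37, with pha-4 tagged by TY1::EGFP::3xFLAG, and unc-119(+). VC100 carries the X chromosomal deletion gkDf2 together with unc-112(r367) on chromosome V. The strains differ in marker mutations as well as in the duplication or deletion they carry, none of the libraries used here is from the wild-type strain N2, and the N2 mRNA-seq of the study was not used here. A difference between strains can therefore not be assigned to a duplication. Each embryo sample is a mixture of developmental ages taken from bleached mothers, and the young adults were harvested a day later than the larvae.

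Levels are FPKM, fragment counts scaled by transcript length and library size, so they can be compared between genes of different length. On the X chromosome lie 5 members, and vit-6 lies on chromosome IV. In WS220 coordinates, vit-5 is at chrX:3403457-3408591, vit-4 at chrX:3558826-3563961, vit-3 at chrX:3567384-3572536, vit-2 at chrX:5101001-5106142, vit-1 at chrX:7727850-7733257 and vit-6 at chrIV:8261131-8266449. The neighbours vit-4 and vit-3 are 3422 bp apart with no listed gene between them, while 21 genes lie in the 150234 bp between vit-5 and vit-4. No member overlaps another listed gene. The vit-3 and vit-4 genes are close copies of each other, and the division of reads between them rests on how they were counted. Their FPKM values differed by less than 0.001 in VC100 embryos 2 and 3, in OP37 library 3 and in BC4289 L2-L3 larvae 1. DNA copy number was not analysed here.

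The relative depth of the 23 libraries, read from the spacing of their lowest FPKM values, ranged from 11.7% to 100% of the deepest library, with a median of 53.2%. Read counts are unknown, so values well under 1 FPKM carry a counting error that cannot be given. Intestinal, oocyte, sperm and adult cuticle marker lists were used to check the stage labels. The 7 oocyte genes summed to between 3866 and 5472 FPKM in the 6 young adult libraries, against 4.56 to 399 FPKM in the other 17. The 4 adult cuticle genes summed to between 2043 and 2503 FPKM in young adults, against 0.141 to 6.22 FPKM in the other libraries. The OP37 libraries did not follow their embryo label: oma-1, a maternal mRNA, was between 0.941 and 4.2 FPKM in OP37, and 184 to 211 FPKM in VC100 embryos and 1.82 to 3.08 FPKM in L2-L3 larvae of both strains, and the deposited names of these libraries call them larvae. They are called OP37 libraries below and were set against both stages. The deposited names of all 6 young adult libraries carry another letter prefix than those of the embryos and larvae. What the prefix stands for is not given, and it cannot be told apart from stage.

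In young adults the vitellogenin genes were among the most abundant mRNAs of the worm. Together they held 2.1%, 2.25% and 2.05% of all FPKM in the SP117 young adults and 1.97%, 2.45% and 1.71% in the BC4289 young adults. The gene of the smaller yolk polypeptides, vit-6, had 7827, 7710 and 8756 FPKM in SP117 young adults and 8082, 8557 and 6408 FPKM in BC4289 young adults. Ranks were taken over the 20327 genes kept, without mitochondrial genes and genes with a failed estimate. The shares above are of the FPKM of all 20390 genes. Among the genes kept, vit-6 ranked between 5 and 14 in a library.

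The highest of the large-polypeptide genes was vit-2, with 6103, 6614 and 5856 FPKM in SP117 young adults and 6209, 7141 and 6263 FPKM in BC4289 young adults. It ranked between 11 and 20 among the genes kept. The remaining members of the large-polypeptide class lay well below it and close together. The vit-5 gene had 2637, 2574 and 2699 FPKM in SP117 young adults and 2129, 3146 and 1905 FPKM in BC4289 young adults. The vit-4 gene had 2435, 2291 and 2404 FPKM in SP117 young adults and 1715, 2710 and 1531 FPKM in BC4289 young adults. These values of both genes spread more widely in BC4289 than in SP117. For vit-3 the SP117 young adults had 2327, 2155 and 2317 FPKM, and the BC4289 young adults 1718, 2690 and 1502 FPKM. For vit-1 they had 1892, 1763 and 1827 FPKM in SP117 and 1511, 2290 and 1497 FPKM in BC4289. The lowest member in all 6 young adult libraries was vit-1, which ranked between 99 and 132 among the genes kept.

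**Figure D1:**
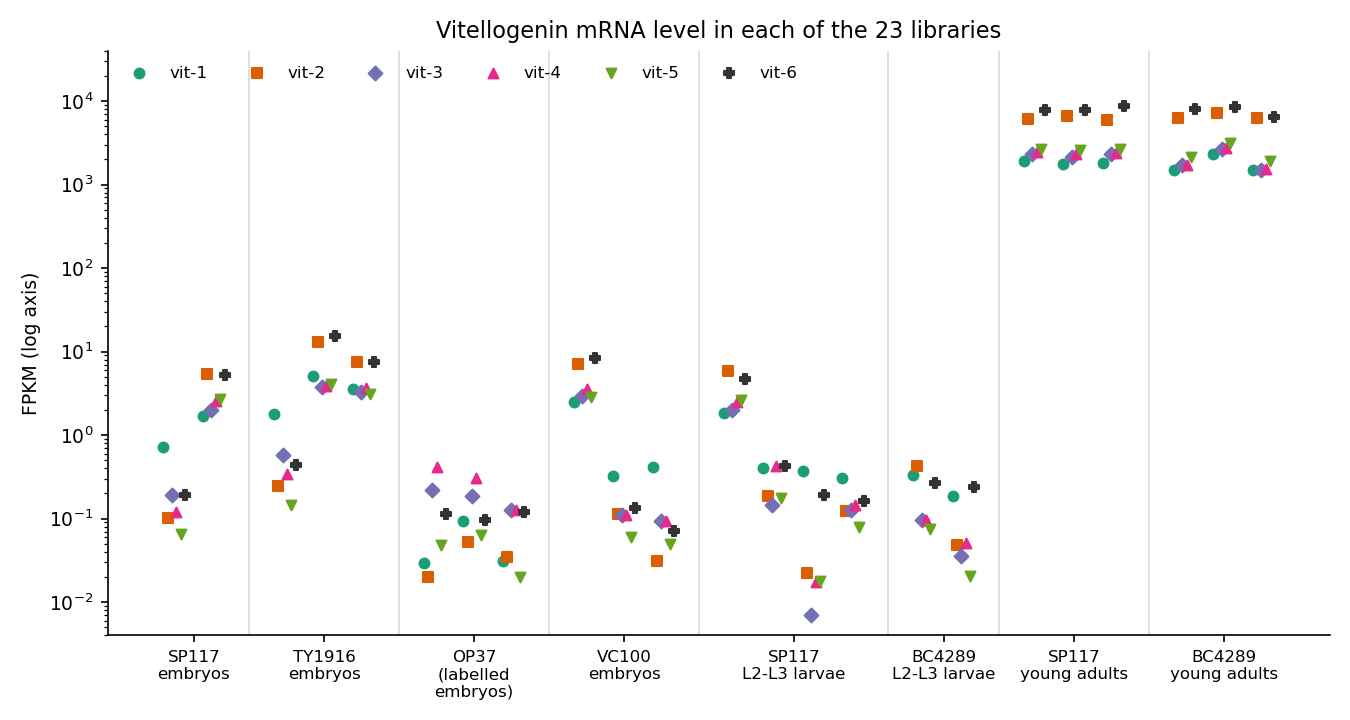
FPKM of vit-1 to vit-6 (symbols, log axis) in each of the 23 libraries, grouped by strain and stage. All 6 genes sit between 1497 and 8756 FPKM in the young adults, and at or below 15.2 FPKM in every other library.

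The order of the members was nearly fixed in young adults. Over the 6 libraries the means were 7890 ± 832 FPKM for vit-6, 6364 ± 453 for vit-2, 2515 ± 441 for vit-5, 2181 ± 457 for vit-4, 2118 ± 436 for vit-3 and 1797 ± 292 for vit-1 (SD, n = 6). Within a library, vit-6 was higher than vit-2 in 6 of 6 libraries, by 1.24 times on average and by as little as 1.02 times. The step from vit-2 to vit-5 was the widest, with a ratio between 2.17 and 3.29. The vit-5 level exceeded that of vit-4 in 6 of 6 libraries, and vit-3 exceeded vit-1 in 6 of 6. The close copies vit-4 and vit-3 could not be ordered, since vit-4 was higher in 5 of 6 libraries and their ratio stayed between 0.999 and 1.06. By the SD over libraries alone, neighbours among vit-5, vit-4, vit-3 and vit-1 do not differ beyond their spread.

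To see how the family changed between stages, SP117 and BC4289 young adults were each compared with the L2-L3 larvae of the same strain, by limma on log2(FPKM + 0.1) of all genes with a mean of at least 1 FPKM, with Benjamini-Hochberg adjustment over all genes tested. All 6 members rose in young adults of both strains. In whole-worm RNA, more cells of a type and more RNA per cell cannot be told apart. The vit-2 gene averaged 6191 FPKM in SP117 young adults and 1.54 FPKM in SP117 larvae, a difference of 13.70 on the log2 scale (95% interval 10.89 to 16.51, limma adjusted p = 3.15e-05). In BC4289 it averaged 6538 FPKM in young adults and 0.237 FPKM in larvae, a difference of 14.51 (interval 13.17 to 15.85, limma adjusted p = 7.42e-05). Of the 13593 genes tested in SP117 and the 13722 in BC4289, vit-2 had the largest positive difference in both strains and vit-6 ranked 2. The vit-6 difference was 13.58 in SP117 (limma adjusted p = 1.05e-05) and 14.40 in BC4289 (limma adjusted p = 3.88e-06). These ranks among all genes, and the order within the family, are those for the pseudocount of 0.1. Under other pseudocounts the ranks among all genes were not taken. A gene at 0 FPKM in larvae gains most from a smaller pseudocount. The eggshell gene perm-2 was such a gene in BC4289, with a difference of 14.16 at 0.1. With a pseudocount of 1, vit-6 exceeded vit-2 in SP117 (12.11 and 11.79) and in BC4289 (12.57 and 12.38). With 0.01, vit-5 came first in BC4289, with 15.49, before vit-2 with 15.32 and vit-6 with 14.82.

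The smallest fitted difference of the family was that of vit-1 in both strains. It averaged 1828 FPKM in SP117 young adults and 0.732 FPKM in SP117 larvae, a log2 difference of 11.43 (interval 10.24 to 12.62, limma adjusted p = 1.73e-06), and ranked 26 among all genes. In BC4289 young adults vit-1 averaged 1766 FPKM, against 0.261 FPKM in larvae, a log2 difference of 12.26 (interval 11.57 to 12.95, limma adjusted p = 2.82e-05). The other members, vit-3, vit-4 and vit-5, had log2 differences of 12.38 to 12.86 in SP117 and 13.44 to 13.97 in BC4289. Every young adult library was above every larval library of its strain for all 6 members. Of all genes tested, 36.9% showed this ordering in SP117 and 40.8% in BC4289. The 6 of 6 members called higher by limma stand against 36.7% of all genes tested in SP117 and 36.7% in BC4289. The median log2 difference was 12.79 over the members and -0.15 over all genes in SP117, and 13.74 over the members and -0.14 over all genes in BC4289. The pseudocount of 0.1 lies near the larval values, so these differences understate the folds of the lower members. Without SP117 L2-L3 larvae 1, which stands apart below, all 6 were still called in SP117, with differences of 11.95 for vit-1 and 14.93 for vit-2.

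SP117 young adults were also compared with SP117 embryos, with the same young adult libraries as above. All 6 members rose, against 30.7% of all genes called higher. The log2 difference was 12.65 for vit-6 (interval 10.01 to 15.28, limma adjusted p = 1.20e-04) and 10.55 for vit-1 (interval 9.80 to 11.30, limma adjusted p = 6.52e-06). Both embryo libraries were below every young adult library for each member, an ordering that 35.2% of all genes tested showed. Without SP117 embryos 2 the differences were between 11.12 for vit-1 and 14.91 for vit-2. Without SP117 embryos 1 they were between 9.81 for vit-4 and 10.55 for vit-6. Each of these fits leaves a single embryo library, so only the differences are given.

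Between the earlier stages no change in the family was detected. Only vit-2 and vit-6 passed the minimum of 1 FPKM in the comparison of SP117 L2-L3 larvae with SP117 embryos. They passed only through SP117 L2-L3 larvae 1 (5.84 and 4.65 FPKM) and SP117 embryos 2 (5.41 and 5.28 FPKM). No other library of the comparison was above 0.184 FPKM of vit-2 or 0.421 FPKM of vit-6. The fits rest on these libraries and cannot show whether the stages differ. The vit-2 gene averaged 1.54 FPKM in larvae and 2.75 FPKM in embryos, a log2 difference of -1.18 with an interval from -5.39 to 3.03 (limma adjusted p = 0.578). For vit-6 the difference was -0.93, with an interval from -4.40 to 2.54 (limma adjusted p = 0.595). None of the members was called, and none reached an unadjusted p under 0.05, against 69% of all genes called. The direction of both turned when SP117 embryos 2 was left out, with 1.20 for vit-2 and 1.16 for vit-6.

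**Figure D2:**
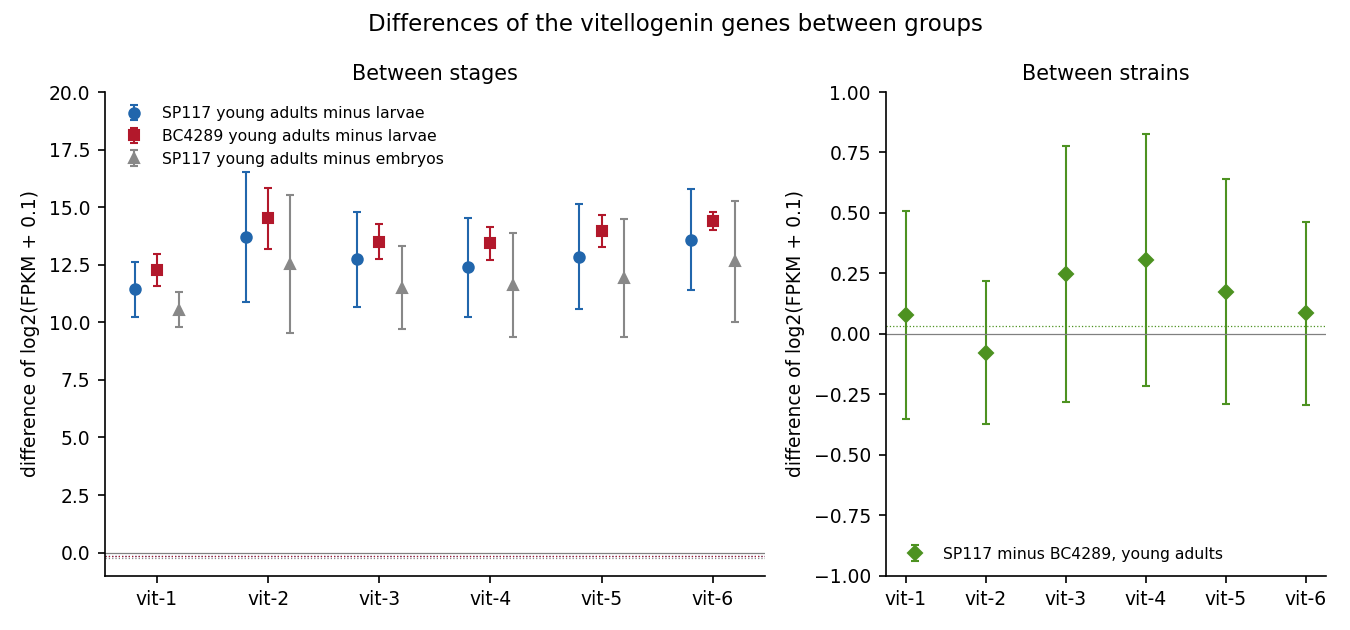
Difference of log2(FPKM + 0.1) for each vitellogenin gene with its 95% interval (bars): young adults minus larvae or embryos on the left, SP117 minus BC4289 young adults on the right. Dotted lines mark the median of all genes tested. All stage differences lie between 10.55 and 14.51, and all strain differences lie between -0.08 and 0.31 with intervals that include 0.

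The wide intervals of the stage comparisons come with a split among the libraries of the earlier stages. In 12 of the 17 embryo, larval and OP37 libraries the 6 members summed to between 0.462 and 3.51 FPKM. In the other 5 they summed to 19.6 FPKM in SP117 embryos 2, 45.1 FPKM in TY1916 embryos 2, 28.6 FPKM in TY1916 embryos 3, 27.2 FPKM in VC100 embryos 1 and 19.4 FPKM in SP117 L2-L3 larvae 1. These sums are between 0.085% and 0.197% of the young adult mean. Replicates of one group fell on both sides of the gap. SP117 embryos 1 summed to 1.39 FPKM, and the VC100 embryos 2 and 3 to 0.856 and 0.757 FPKM. SP117 L2-L3 larvae 2 to 4 summed to 1.76, 0.631 and 0.947 FPKM.

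For vit-2 the contrast within a group was wider still. It had 0.102 and 5.41 FPKM in SP117 embryos, 0.249, 13.1 and 7.49 FPKM in TY1916 embryos, and 7.04, 0.115 and 0.031 FPKM in VC100 embryos. Among SP117 L2-L3 larvae it had 5.84, 0.184, 0.022 and 0.125 FPKM, and in BC4289 L2-L3 larvae 0.426 and 0.049 FPKM. A single larval library and 4 embryo libraries thus held nearly all of the vit-2 signal seen before adulthood.

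Of the 5 libraries, 4 carry consecutive library numbers in their deposited names: 131 (SP117 L2-L3 larvae 1), 132 (SP117 embryos 2), 133 (VC100 embryos 1) and 134 (TY1916 embryos 3). Between these 4 libraries the sums stayed within 19.4 and 28.6 FPKM, whatever the strain or stage. A second run of numbers, from 143 to 148, holds 2 libraries each of SP117 larvae, BC4289 larvae and VC100 embryos, and its sums lay between 0.582 and 1.76 FPKM. What the numbers stand for is not given in the sources used here.

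A few other genes of the adult, chosen after their values were seen, were also highest in most of these 5 libraries. The adult cuticle collagen gene col-19 had 1.31 FPKM in SP117 embryos 2, 5.44 and 1.99 FPKM in TY1916 embryos 2 and 3, 1.94 FPKM in VC100 embryos 1 and 2.03 FPKM in SP117 L2-L3 larvae 1, and at most 1.2 FPKM in the other 12 libraries. The eggshell gene perm-4, which is expressed in the adult gonad, had 1.22, 2.68, 1.03, 1.52 and 0.318 FPKM in these libraries in the same order, and at most 0.503 FPKM in the other 12. For perm-2, its partner in the eggshell, the values were 1.86, 5.6, 2.65, 2.6 and 1.81 FPKM, and the highest of the other 12 was TY1916 embryos 1 with 2.13 FPKM. The oocyte genes rme-2 and egg-1 did not follow this split. The yolk receptor gene rme-2 had 9.53 FPKM in VC100 embryos 2, where the vitellogenin sum was low, against 1.44 FPKM in TY1916 embryos 2, where it was highest, and the egg surface gene egg-1 had 11.2 FPKM in VC100 embryos 2 and 2.44 FPKM in TY1916 embryos 2. The whole adult cuticle list (4 genes) summed to between 0.141 and 6.22 FPKM in the 17 libraries, with 5.15 FPKM in OP37 library 3 and 1.73 FPKM in SP117 embryos 2, and the sperm list (5 genes) to between 0.284 and 4.59 FPKM. The part of RNA from older worms in the vitellogenin signal of these libraries was not tested.

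**Figure D3:**
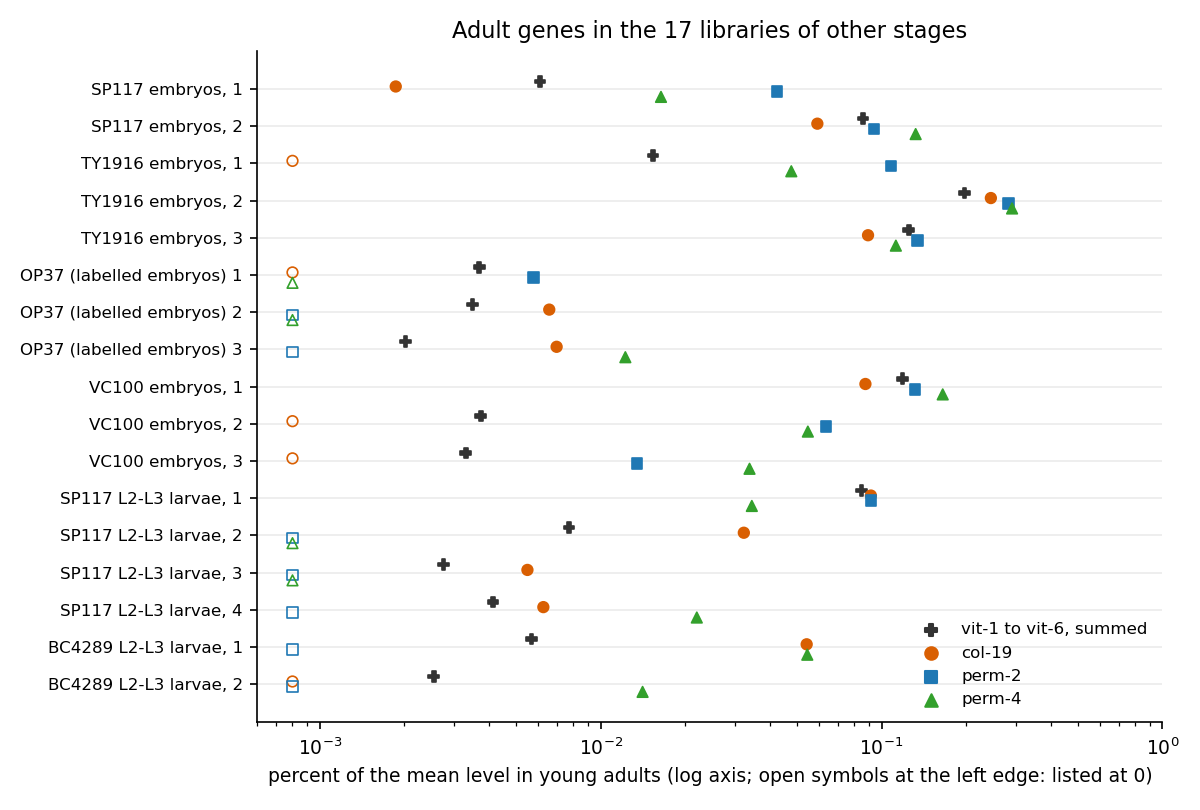
Summed vitellogenin FPKM and the FPKM of col-19, perm-2 and perm-4 in each of the 17 libraries of other stages, as percent of their mean in the 6 young adult libraries (log axis). In the 5 libraries with the highest vitellogenin sums, between 0.085% and 0.197%, col-19 is between 0.0591% and 0.245%. The genes col-19, perm-2 and perm-4 were chosen after their values were seen. The oocyte genes rme-2 and egg-1, not plotted, did not follow this split.

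The make-up of the family also differed between these libraries. In young adults vit-1 gave between 7.07% and 8.63% of the summed vitellogenin FPKM, and vit-2 and vit-6 together gave the largest part. In the 5 libraries with sums from 19.4 to 45.1 FPKM the share of vit-1 was close to that, between 8.66% and 12.5%. Of the 9 libraries under 10 FPKM that are not from OP37, vit-1 was the highest member in 6, with a share between 23.1% and 59.5% over the 9. In SP117 embryos 1, for example, vit-1 had 0.721 FPKM, and the next highest member, vit-6, had 0.194 FPKM. In VC100 embryos 3 vit-1 had 0.416 FPKM and no other member more than 0.094 FPKM. The line of 10 FPKM was chosen after the values were seen, and the shares are a description with no test.

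The deposited names of the OP37 libraries carry another letter prefix than those of all other embryo and larval libraries. Strain and whatever the prefix stands for cannot be told apart in the comparisons with OP37. OP37 had the lowest vit-1 of the series, with 0.029, 0.094 and 0.031 FPKM, where no other library was below 0.188 FPKM. Its highest member was vit-4, with 0.415, 0.303 and 0.127 FPKM, and vit-3 and vit-4 together made up most of its summed signal. Compared with VC100 embryos, 2 members, vit-2 and vit-6, passed the minimum of 1 FPKM. They passed only through VC100 embryos 1, with 7.04 and 8.31 FPKM. No other library of the comparison was above 0.115 FPKM of vit-2 or 0.135 FPKM of vit-6. Their fits thus rest on that library and cannot show whether the strains differ. Neither was called by limma, with no unadjusted p under 0.05, against 66.2% of all genes called. The vit-2 difference was -2.12 (interval -5.33 to 1.10, limma adjusted p = 0.211) and the vit-6 difference was -1.73 (interval -4.88 to 1.43, limma adjusted p = 0.293). All 3 OP37 libraries were below all 3 VC100 libraries for vit-1. Of the 13469 genes that passed the minimum level, which vit-1 did not, 42.3% showed this ordering in this direction. With no minimum level, limma called vit-1 lower in OP37 by -2.48 on the log2 scale (adjusted p = 0.0205, with 52% of all genes called), and no other member. Compared with the 6 L2-L3 libraries of SP117 and BC4289, no member reached the minimum level. There vit-1 and vit-6 were lower in all OP37 libraries than in all larval libraries. Of the 12895 genes that did pass the minimum level, 9.35% showed this ordering. With no minimum level neither member was called (limma adjusted p = 0.104 for vit-1 and 0.492 for vit-6).

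**Figure D4:**
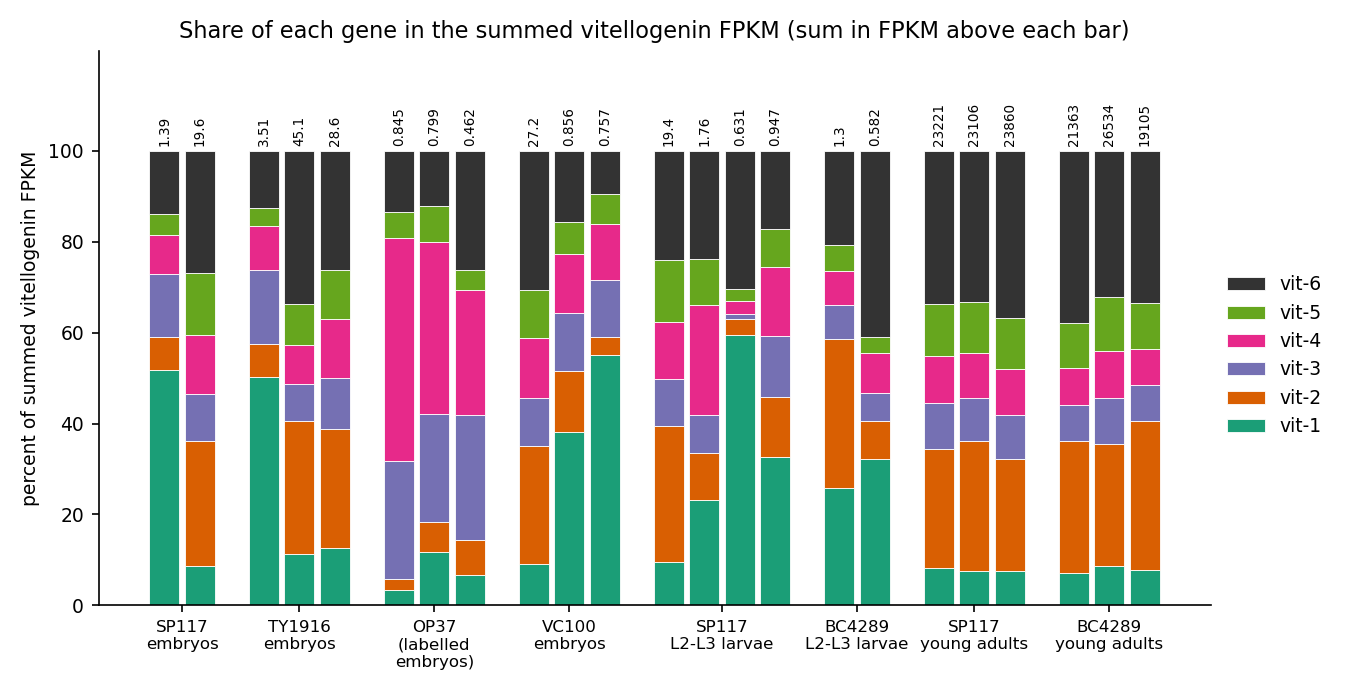
Share of each gene in the summed vitellogenin FPKM of each library, as stacked bars that add up to 100 percent, with the sum in FPKM printed above each bar. In the 6 young adult libraries vit-1 holds between 7.07% and 8.63%, and in 6 of the 9 libraries under 10 FPKM outside OP37 it is the highest member.

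The young adults of SP117 and BC4289 differ in the duplication they carry, and were compared to see whether the family did. None of the 6 members was called by limma, none had an unadjusted p under 0.05, and the groups overlapped for every member. The background was low, with 0.109% of all genes called, and 1012 of 12827 genes at an unadjusted p under 0.05. The largest difference was that of vit-4, at 2377 ± 75.9 FPKM in SP117 and 1985 ± 634 FPKM in BC4289 (SD, n = 3 each), a log2 difference of 0.31 with an interval from -0.22 to 0.83 (limma adjusted p = 0.735). The chromosome IV member vit-6 averaged 8098 ± 573 FPKM in SP117 and 7682 ± 1129 FPKM in BC4289, a log2 difference of 0.08 with an interval from -0.30 to 0.46. For vit-2 the difference was -0.08, with an interval from -0.37 to 0.22. As folds of SP117 over BC4289, the intervals run from 0.861 to 1.77 times for vit-4 and from 0.771 to 1.16 times for vit-2.

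The spread behind these intervals came mostly from BC4289. The coefficient of variation of a member was between 2.38% and 7.08% in SP117 young adults and between 8% and 32.1% in BC4289 young adults. All 6 members were highest in BC4289 young adults 2, and 5 of them were lowest in BC4289 young adults 3. The same library stood apart in other genes of the adult. Its 5 sperm genes summed to 25.9 FPKM, against 81.9 and 97.4 FPKM in BC4289 young adults 1 and 3 and 40.3 to 49.6 FPKM in SP117 young adults. Its 7 oocyte genes summed to 5472 FPKM, against 4020 and 3866 FPKM in BC4289 young adults 1 and 3 and 4903 to 4974 FPKM in SP117 young adults. The part of age within the young adult stage in this spread was not tested. Without BC4289 young adults 2, vit-4 was called higher in SP117 (log2 difference 0.55, limma adjusted p = 0.0466), with 2.92% of all genes called and the other 5 members not called.

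In L2-L3 larvae, only vit-2 passed the minimum level between SP117 and BC4289, and it was not called (log2 difference 0.73, interval -3.70 to 5.17, limma adjusted p = 0.946, no unadjusted p under 0.05), with 0.0389% of all genes called. It passed only through SP117 L2-L3 larvae 1, with 5.84 FPKM, and no other larval library was above 0.426 FPKM. With another single library left out, the difference lay between -0.18 and 1.64. This fit cannot show whether the larvae of the strains differ. Whether the rise to young adults differed between the strains was tested as an interaction of stage and strain. No member was called and none had an unadjusted p under 0.05, against 0.0291% of all genes called. The rise in SP117 minus the rise in BC4289 was between -1.12 and -0.78 on the log2 scale, with limma adjusted p between 0.863 and 0.948. Its direction rests on SP117 L2-L3 larvae 1. Without that library it was 0.42 for vit-2, 0.10 for vit-3 and 0.13 for vit-6, and stayed negative for vit-1, vit-4 and vit-5. For vit-1, the member with the narrowest interval, the difference with all libraries was -0.83, between -2.39 and 0.74.

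In embryos, TY1916 had higher average levels than VC100 for all 6 members, but the groups overlapped. The vit-1 gene had 1.77, 5.14 and 3.58 FPKM in TY1916 embryos, against 2.48, 0.326 and 0.416 FPKM in VC100 embryos. Its log2 difference was 2.0 (interval 0.25 to 3.74, limma adjusted p = 0.0769), and it alone had an unadjusted p under 0.05. The differences of the other members were between 1.82 and 2.51, with limma adjusted p up to 0.343. None of the 6 was called, against 27.9% of all genes. This outcome rests on single libraries. Without VC100 embryos 1, limma called 5 members higher in TY1916, all but vit-5, with adjusted p between 0.0060 and 0.0413 (40.4% of all genes called). Without the libraries numbered 131 to 134, which takes VC100 embryos 1 and TY1916 embryos 3 away, vit-1, vit-3 and vit-6 were called (adjusted p = 0.0108, 0.0298 and 0.0496, 53% of all genes called). In both fits the VC100 libraries left, VC100 embryos 2 and 3, had no member above 0.416 FPKM. The members thus passed the minimum level only through TY1916 libraries. In the latter fit vit-3 and vit-6 passed only through TY1916 embryos 2. These calls cannot show that the strains differ. With all 23 libraries in one fit vit-1 alone was called (limma adjusted p = 0.0171, 36.1% of all genes called). Within the run of numbers the single TY1916 and VC100 libraries had sums of 28.6 FPKM in TY1916 embryos 3 and 27.2 FPKM in VC100 embryos 1. Marker genes moved between the same groups. Of 8 intestinal markers measured, limma called 4 higher in TY1916 embryos (ifb-2 by 3.07 times, vha-6 by 2.32 times, act-5 by 2.25 times and asp-1 by 2.24 times) and 1 lower (elt-7), and the list summed to between 986 and 1527 FPKM in TY1916 and between 500 and 704 FPKM in VC100. Of 7 oocyte markers, oma-1 and puf-5 were called lower and none higher, and the list summed to between 91.5 and 217 FPKM in TY1916 and between 329 and 399 FPKM in VC100. Their part in the result was not tested.

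SP117 embryos against VC100 embryos gave no call among the 6 members and no unadjusted p under 0.05, against 0.065% of all genes called. The log2 differences were between 0.52 and 0.85. All 6 members passed the minimum level through SP117 embryos 2 and VC100 embryos 1. In the other libraries of the comparison no member was above 0.721 FPKM. The widest interval was that of vit-2, from -4.10 to 5.79 (limma adjusted p = 0.910).

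The genes known to act on vitellogenin transcription were described from a list of 9, not all of which are specific to the intestine. Only ceh-60, a homeobox gene needed for vitellogenin expression in the adult intestine, rose in young adults. It averaged 5.69 ± 0.0987 FPKM in SP117 young adults (SD, n = 3) and 0.625 ± 0.283 FPKM in SP117 larvae (SD, n = 4), 8.45 times higher (limma adjusted p = 9.41e-05). In BC4289 it averaged 8.09 ± 2.63 FPKM in young adults (SD, n = 3) and 1.33 ± 0.217 FPKM in larvae (SD, n = 2), 5.58 times higher (limma adjusted p = 0.00199). Its known partner unc-62, a homeobox cofactor gene, fell in both strains, to 33.4 FPKM in SP117 young adults, against 78 FPKM in larvae.

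The GATA factor gene elt-2, the main intestinal regulator that binds vitellogenin promoters, also fell in both strains. It averaged 6.58 FPKM in SP117 young adults and 17.2 FPKM in larvae (limma adjusted p = 0.00151), and 7.49 FPKM in BC4289 young adults and 18.9 FPKM in larvae (limma adjusted p = 0.00352). The heterochronic gene lin-29, which drives the larva-to-adult switch, fell by 1.03 on the log2 scale in SP117 and by 0.94 in BC4289. In all, 1 of the 9 was called higher and 5 lower in SP117, where 36.7% of all genes were called higher and 40.1% lower. In BC4289 it was 1 higher and 4 lower, where 36.7% were called higher and 37.3% lower. The insulin pathway factor gene daf-16 was called in neither strain. The median log2 difference of the list was -1.03 in SP117, beside -0.15 over all genes, and -0.67 in BC4289, beside -0.14. The intestinal marker list holds elt-2 and elt-7 as well. Of its 6 other genes measured, mtl-2 was called higher and 5 (ges-1, ifb-2, act-5, vha-6 and asp-1) were called lower in both strains. All 8 summed to between 3851 and 5784 FPKM in young adults, against 7559 to 9655 FPKM in larvae, and the part of the intestine's share of the worm in these values was not tested.

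Among 12 genes of yolk assembly, uptake and breakdown, the yolk receptor gene rme-2 changed most. It averaged 246 ± 11 FPKM in SP117 young adults and 1.49 ± 0.109 FPKM in larvae, 155 times higher (limma adjusted p = 5.19e-08). In BC4289 it averaged 215 ± 42.3 FPKM in young adults and 1.6 ± 0.564 FPKM in larvae, 129 times higher (limma adjusted p = 7.91e-05). The oocyte marker list holds rme-2, and its 6 other genes rose as well in both strains. The endocytic recycling genes rme-1 and rme-8 rose modestly, rme-1 by 1.47 times in SP117 and 1.51 times in BC4289, and rme-8 by 1.6 times and 1.29 times. For cav-1 the rise was larger in SP117, by 3.93 times (limma adjusted p = 0.00241). In BC4289 cav-1 was not called (1.82 times, limma adjusted p = 0.209).

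Other genes of the pathway fell. The gene dsc-4, which encodes the lipid transfer protein that loads vitellogenin particles, fell to 23.8 FPKM in SP117 young adults, against 63.7 FPKM in larvae, and to 33.1 FPKM in BC4289 young adults, against 89.3 FPKM in larvae. The clathrin adaptor gene dpy-23 fell as well, to 0.459 times its larval level in SP117 and 0.508 times in BC4289. The counts were 5 higher and 2 lower of 12 in SP117, where 36.7% of all genes were called higher and 40.1% lower. In BC4289 they were 5 higher and 3 lower, where 36.7% of all genes were called higher and 37.3% lower. The median log2 difference of this list was 0.25 in SP117 and 0.27 in BC4289, beside -0.15 and -0.14 over all genes.

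**Figure D5:**
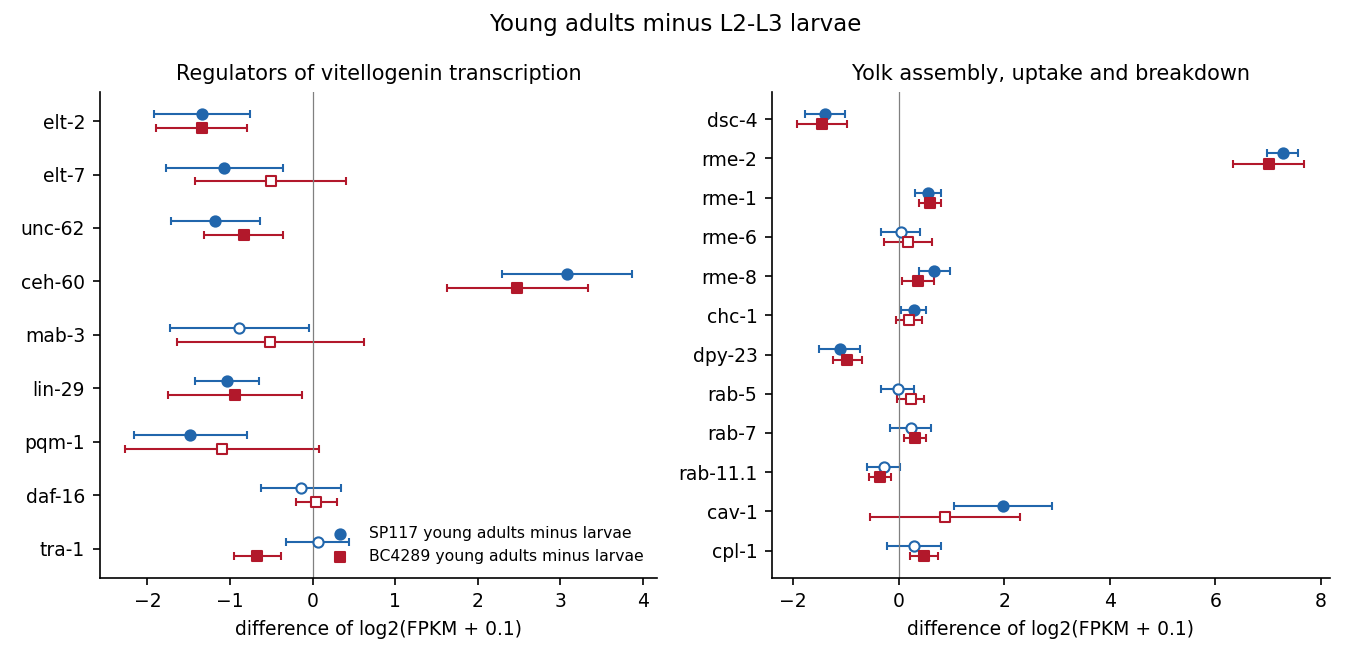
Young adults minus L2-L3 larvae, as the difference of log2(FPKM + 0.1) with its 95% interval, for 9 regulators of vitellogenin transcription and 12 genes of yolk assembly, uptake and breakdown in SP117 (circles) and BC4289 (squares). Filled symbols passed the limma test at an adjusted p of 0.05. The ceh-60 and rme-2 genes stand to the right of all others on their list in both strains.

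Between the young adults of SP117 and BC4289, no gene of either list was called by limma, where 0.109% of all genes were. An unadjusted p under 0.05 was reached by 2 of the 21. The caveolin gene cav-1 averaged 51.1 ± 15.7 FPKM in SP117 and 18.1 ± 12.1 FPKM in BC4289 (SD, n = 3 each), a log2 difference of 1.65 with an interval from 0.47 to 2.82 (limma adjusted p = 0.506). For dsc-4 the difference was -0.45, with an interval from -0.82 to -0.08 (limma adjusted p = 0.578).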

How the data were processed

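Whole-worm poly(A) mRNA was sequenced as strand-specific libraries. The authors aligned reads to WS220 with HISAT2 2.2.1, computed FPKM with Cufflinks 2.2.1, and deposited FPKM and TPM per gene and library. In the deposited tables TPM is FPKM rescaled to a fixed sum. Deposited starts count from 0, and 1 was added. Groups came from the sample labels, and nothing states whether replicates are separate cultures, so p-values measure only the spread between these libraries. Of 20390 genes, 51 with a failed estimate in any library (the intestinal marker pept-1 among them) and 12 mitochondrial genes were left out.

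Differences were tested with limma 3.58.1 (R 4.3.3, eBayes with a trend, two-sided) on log2(FPKM + 0.1) of genes with a mean of at least 1 FPKM in the groups compared, adjusted by the Benjamini-Hochberg method over all genes at 0.05. Only the groups compared entered a fit. The steps were tested on simulated data. Alternatives were pseudocounts of 1 and 0.01, no minimum, TPM, median-centred libraries, all 23 libraries in one fit, a replicate block, and each library left out. Figures and summaries used python 3.11.15, numpy 2.4.6, pandas 2.3.3 and matplotlib 3.10.9. RefSeq names on a newer assembly matched 97.5% of identifiers. Named genes are the 6 members, the fixed lists, and the 10 genes most alike. The rule for the members uses gene names alone, but the family and the lists were chosen with earlier results of these data known. The 18 DNA-seq samples were not analysed here, and gene sequences were not used here.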

Additional observations from a re-analysis of the deposited data

Results flagged for a closer look

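SP117 L2-L3 larvae, with 4 libraries, was the only group of 4 or more libraries. Groups of 2 or 3 were not tested for a library that stands apart. Its library 1 lay far above the other 3 for every member. It had 1.84 FPKM of vit-1, 5.84 of vit-2, 1.99 of vit-3, 2.47 of vit-4, 2.65 of vit-5 and 4.65 of vit-6, and 19.4 FPKM in sum. The gap to the nearest other library, as a share of the range of the group, was between 0.833 (vit-4) and 0.972 (vit-2), above Dixon's critical value of 0.829. Chance alone passes this value in about 1 of 20 groups, and the 7 values come from the same library and are not independent. This library carries the number 131, the lowest of the run of 4 consecutive library numbers whose vitellogenin sums were all high. The cause was not tested.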

How the results depend on the processing

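Counts of members called were recomputed under each alternative. The 6 calls of each comparison with young adults as one stage and an earlier stage as the other held under every alternative that kept more than a single library in each group. Leaving out a library of SP117 embryos or BC4289 larvae leaves a single one there, and calls of those fits are not counted here. For 3 comparisons the count moved. For SP117 against BC4289 young adults, leaving out a library gave 0 to 1 calls. For TY1916 against VC100 embryos, leaving out a library gave 0 to 5 calls, and all 23 libraries in one fit gave 1 (vit-1, limma adjusted p = 0.0171). Leaving out the libraries numbered 131 to 134, an alternative added after the data were seen, gave 3. Without VC100 embryos 1, or without libraries 131 to 134, the members passed the minimum level through TY1916 libraries alone. For OP37 against VC100 embryos, no minimum level gave 1. Fewer libraries enter a fit when some are left out, and beyond that the cause was not tested. No called difference changed sign. Over single members, 10 values became called under some alternative and none was lost.

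With the replicate number as a block the counts stayed at 6 for the young adult rises and 0 for all other comparisons. Whether the replicate numbers pair the libraries cannot be told. The correlation of same-numbered deviations lay between -0.26 and 0.24, but deviations from the means of so few libraries cannot exclude a pairing. Counts over all genes were less stable. Where BC4289 larvae enter, the ranges include fits that leave a single library of that group, whose calls do not measure its spread. SP117 against BC4289 young adults gave 14 genes, 0 to 378 with a library left out, 9 with no minimum and 36 after median-centring. TY1916 against VC100 embryos gave 3660 genes, 917 with the block, 319 to 5326 with a library left out and 6870 without libraries 131 to 134. SP117 against VC100 embryos gave 8 genes, 63 with all libraries in one fit and 15 with the block. Leaving out libraries 131 to 134, or either library of SP117 embryos, leaves a single SP117 library. Counts with libraries left out are therefore not given for this comparison. OP37 against larvae gave 1383 genes, 4407 with TPM, 2110 in one fit, 2106 with the block and 383 to 2658 with a library left out. SP117 against BC4289 larvae gave 5 genes and 0 to 23 under all alternatives, and the interaction gave 4 and 0 to 10.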

Other observations

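Genes of the cuticle were among those whose levels followed the family most closely. Over the 23 libraries, Pearson's r of each gene's log2(FPKM + 0.1) with the mean of the 6 members was taken for 14247 genes, as a description, since all genes share the libraries and the step between young adults and other stages. It was over 0.95 for 198 genes. The 10 highest held 4 collagen genes, col-179 (r = 0.990), col-119 (0.988), col-19 (0.987) and col-8 (0.985), which encode cuticle components. They also held ule-4 (0.986), stha-3 (0.988), and the genes D1086.10 (0.991), Y37D8A.19 (0.990), ZK813.1 (0.988) and K04C1.5 (0.986), for which no role is given here. The gene D1086.10 had between 728 and 1019 FPKM in young adults, and between 0 and 1.78 FPKM in the other 17 libraries. Y37D8A.19 had between 825 and 1058 FPKM in young adults, and at most 1.07 FPKM elsewhere. The col-179 gene had between 731 and 1009 FPKM in young adults, and at most 2.79 FPKM elsewhere.

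Within the family, the lowest r of a member with the mean of the other 5 was 0.989. The yolk receptor gene rme-2 had r = 0.944 and rank 263, and the regulator ceh-60 had r = 0.773 and rank 1109. The eggshell genes perm-4 and perm-2 ranked 12 and 19. The list depends on the libraries, since over the 8 group means only 2 of the 10 genes stayed among the 10 highest, while with TPM 9 did.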
